A study of Homo sapiens with 80 samples.

Results

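The insulin-like growth factor (IGF) genes described here are the ligands IGF1 and IGF2, the type 1 receptor IGF1R, and the binding proteins IGFBP1 to IGFBP7. These 10 genes were taken by name out of the 43388 genes listed in the expression table of each of 2 experiments, and all 10 were found in both tables. Expression is given as TPM, a level per transcript length and library size.

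Human pluripotent stem cells were driven towards cardiomyocytes by activating Wnt signalling with CHIR99021 on day 0 and then inhibiting it with IWP2, and each differentiation was later classed as high or low purity from its yield of troponin T positive cells (the cardiac form, TNNT2) at day 16. The multi-omic experiment used WTC11, an induced pluripotent stem cell line, and poly(A) RNA from 56 wells: 25 wells of a high purity differentiation at passage 52 and 31 wells of a low purity differentiation at passage 69. Wells were collected at a 2-day spacing up to day 10 and again on days 13 and 16. All WTC11 wells received CHIR99021 on day 0 and IWP2 on day 2 in medium without insulin, and medium with insulin from day 6 onwards. Up to day 6, each class had 4 wells a day. Later days had 3 high and 4 low wells on day 8, 1 and 4 on day 10, 2 and 4 on day 13, and 3 and 3 on day 16. The RNA-only experiment sequenced total RNA from 24 libraries of 3 lines, with 1 library for each line, class and stage: the embryonic stem cell line H9 (passage 58 high, passage 55 low) and the induced lines IMR90-4 (passage 55 high, passage 75 low) and WTC11 (passage 81 high, passage 69 low). Its 4 stages were day 0, day 2 (WTC11) or 3, day 4 or 5 and day 6 or 7, with IWP2 given on day 3 and insulin from day 7 in H9 and IMR90-4. Each class of the multi-omic experiment is 1 differentiation, so purity, passage and differentiation cannot be told apart there, and p-values measure only the spread between wells.

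IGF1 and IGF2 are secreted hormones that signal for growth and survival through the tyrosine kinase IGF1R, and IGF2 is an imprinted fetal growth factor made by many mesodermal tissues. The binding proteins are secreted carriers that hold the ligands away from the receptor or deliver them to it, and proteases such as pappalysin-1 cut them and free the ligand. In the developing heart, IGF2 made by the epicardium is known to act on dividing cardiomyocytes.

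The bases just upstream of the start are printed for IGFBP3, IGFBP5 and IGFBP4, because each holds a TATA-like hexamer at the usual distance from the start. They were picked after the search, come from RefSeq (GRCh38.p14), and run from 150 bases before the annotated start to the base before it on the gene's own strand, with the hexamer in capitals.
IGFBP3, chr7:45921273-45921422, minus strand: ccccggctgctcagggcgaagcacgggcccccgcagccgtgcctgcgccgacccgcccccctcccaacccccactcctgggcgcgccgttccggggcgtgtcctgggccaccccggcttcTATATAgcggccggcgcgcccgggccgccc
IGFBP5, chr2:216695550-216695699, minus strand: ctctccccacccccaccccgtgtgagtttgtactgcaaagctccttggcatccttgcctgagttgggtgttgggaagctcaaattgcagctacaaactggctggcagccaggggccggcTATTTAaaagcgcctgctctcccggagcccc
IGFBP4, chr17:40443300-40443449, plus strand: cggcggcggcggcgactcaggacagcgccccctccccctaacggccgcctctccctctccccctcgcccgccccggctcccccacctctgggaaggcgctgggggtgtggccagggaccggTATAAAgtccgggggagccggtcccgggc
The hexamers begin at position -30 for IGFBP3 (TATATA), -31 for IGFBP5 (TATTTA) and -29 for IGFBP4 (TATAAA). Searched on both strands in the 250 bases before each of 35116 annotated starts, TATATA was found in 3.73%, TATTTA in 11.7% and TATAAA in 10.7% of windows, and each was found in 1 of the 10 windows that the table lists for 7 members, namely the window printed for it. The letters GGGCGG stood in 6 of those 10 windows and in 42.6% of all windows. A match is a description of these letters and not a binding site.

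IGFBP1 (chromosome 7, 45888488 to 45893660) and IGFBP3 (chromosome 7, 45912245 to 45921272) lie 18584 bases apart, and IGFBP2 (chromosome 2, 216632828 to 216664436) and IGFBP5 (chromosome 2, 216672105 to 216695549) lie 7668 bases apart on GRCh38. IGF2 (chromosome 11, 2129117 to 2149566) overlaps the annotated genes INS-IGF2, MIR483 and IGF2-AS, so its reads cannot all be separated from theirs and its level is uncertain in that respect. IGFBP5, IGFBP7, IGF1R and IGF1 also overlap non-coding or neighbouring genes in the annotation.

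Library depth ran from 6579715 to 18143597 reads in the multi-omic wells and from 17990882 to 40357968 in the RNA-only libraries. The high purity wells were sequenced more deeply on the early days, with means of 14499226 against 8464411 reads on day 0. Markers of the labelled cells were present: all 11 cardiomyocyte markers were above 1 TPM in both classes on day 16, and the 7 pluripotency markers summed to between 3706.9 and 4641.6 TPM on day 0, although POU5F1 was below 1 TPM in every multi-omic group. Of 5 neuroectoderm markers, PAX6, SOX1 and ZIC1 were below 1 TPM on days 0, 6, 8 and 16, and of OTX2 and NES, which passed the filter, OTX2 was called higher in the high purity wells on days 4, 6, 8, 13 and 16. In bulk RNA, fewer cells of a type and less RNA per cell cannot be told apart.

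Between the classes, members were called from day 2 on, and the main direction of the calls changed between days. A gene was called when limma's Benjamini-Hochberg adjusted p was below 0.05 and the difference was at least 1 on the log2 scale of scaled TPM plus a pseudocount of 1. On day 2, 1 of the 10 members was called, higher in the high purity wells, when 5.33% of all 25664 genes tested were called (2.24% higher and 3.08% lower). On day 4, 1 was higher and 3 were lower, with 7.84% of all genes called (3.62% higher and 4.22% lower). On day 6, 4 were higher and 1 was lower against 8.8% of all genes (3.61% and 5.19%), and on day 8 there were again 4 higher and 1 lower against 12.2% (4.66% and 7.5%). None was higher and 4 were lower on day 13, when 10.8% of all genes were called (4.55% and 6.23%), and likewise on day 16, when 13.4% were (5.76% and 7.65%). Day 0 had no called member, 4 members at an unadjusted p below 0.05, and 1.07% of all genes called (0.242% higher and 0.826% lower). IGFBP2, IGFBP4 and IGFBP5 had an adjusted p below 0.05 there and missed only the size requirement. Without that requirement 14.6% of all genes were called on day 0. With it, other tools, edgeR and DESeq2 on reads recovered from the TPM, called 1 and 2 members on day 0. IGF1 and IGFBP1 entered the fit through the low purity wells, since no high purity well reached 1 TPM of either. IGF1 is among the 4 lower members of days 13 and 16.

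The members also changed from day to day within each class. In the high purity wells 4 were called between days 0 and 2, 3 between days 2 and 4, 5 between days 4 and 6, 3 between days 6 and 8, and 2 between days 8 and 16. Of all genes 16.7%, 13.7%, 7.96%, 5.58% and 11.4% were called at those steps. The low purity wells had 3, 5, 4, 0 and 6 called members at the same steps, beside 17.9%, 16.9%, 6.62%, 3.31% and 6.39% of all genes. IGF1 is among the 6 of the last step, and it entered the fit mainly through late low purity wells. At the step with 0 calls by limma, 6 members had an unadjusted p below 0.05, and edgeR and DESeq2 also called 0. The change from day 0 differed between the differentiations for 0, 4, 5, 3, 4 and 6 members on days 2, 4, 6, 8, 13 and 16, and for 3.22%, 7.01%, 7.17%, 10.3%, 10.5% and 13.4% of all genes. On day 2, 3 members had an unadjusted p below 0.05 for that difference, edgeR called 0 and DESeq2 called 1.

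**Figure D1:**
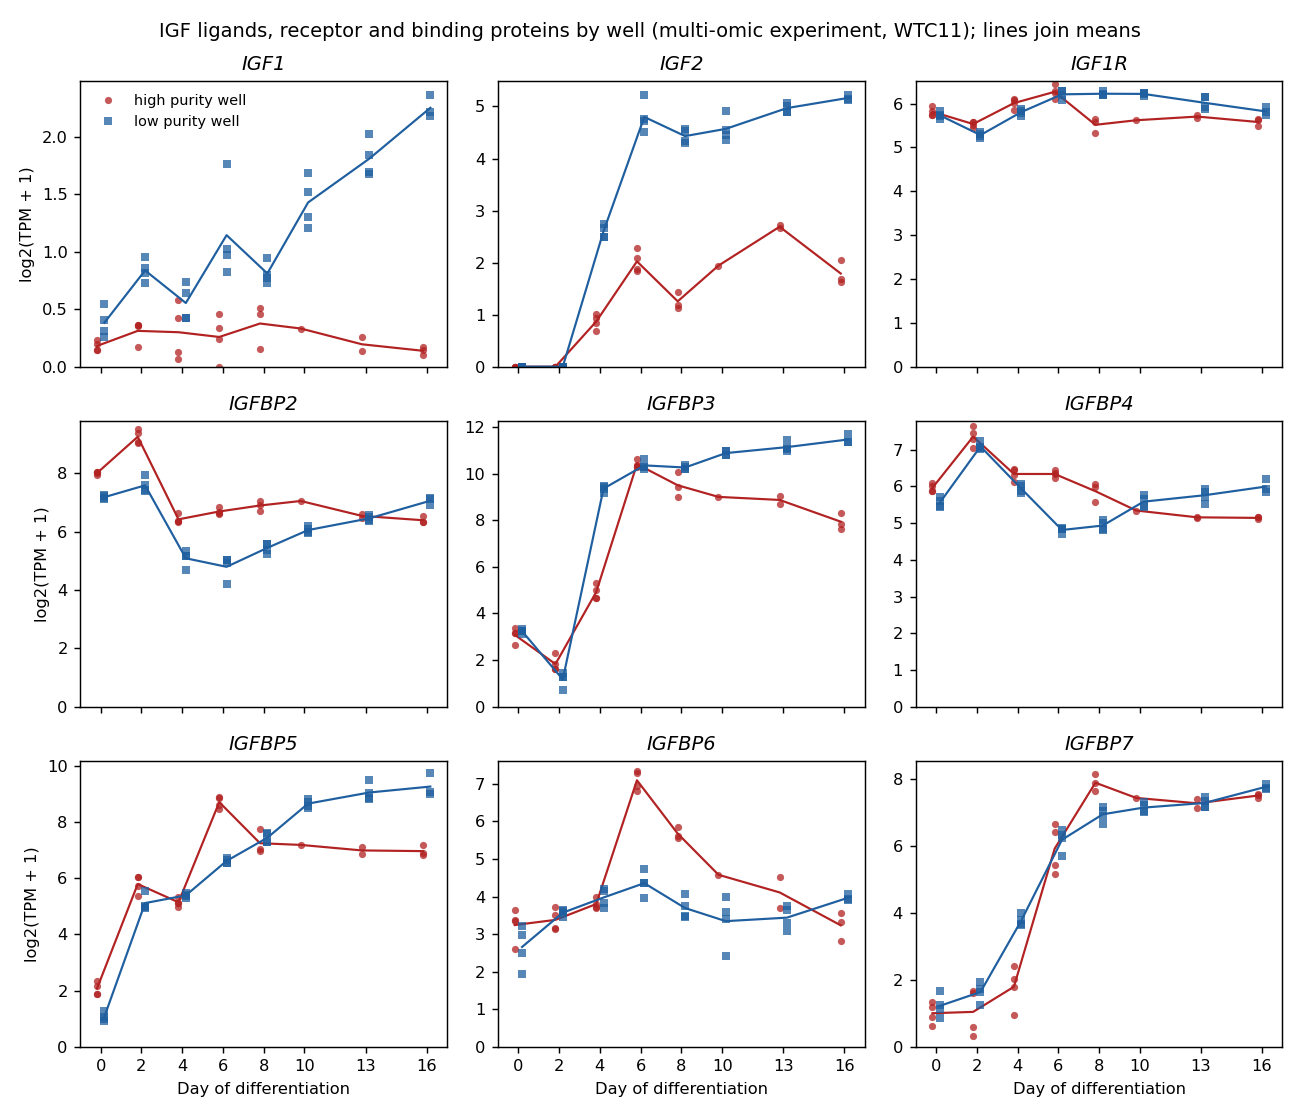
Expression of 9 members as log2(TPM + 1) on the vertical axis by day of differentiation on the horizontal axis, with 1 point per well, red circles for the high purity and blue squares for the low purity WTC11 differentiation, and lines through the means. IGF1 and IGF2 separate upwards in the low purity wells, IGFBP3 reaches 582 TPM or more on day 4 in those wells, and IGFBP6 peaks on day 6 in the high purity wells.

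IGF2, the fetal ligand, was lower in the high purity wells on every tested day from day 4 to day 16. It had 0 reads in all 16 wells of days 0 and 2. On day 4 it was at 1.01, 0.781, 0.617 and 0.913 TPM in the high purity wells and at 5.68, 4.66, 5.37 and 4.65 TPM in the low purity wells. The groups did not overlap, as for 31.7% of all genes that day, and the difference was -1.70 ± 0.12 (SE) on the log2 scale (limma adjusted p = 6.61e-16). Against a floor of 3 reads per library on day 2, the day 4 mean was at least 7.86-fold higher in the high and at least 29.5-fold higher in the low purity wells.

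The gap in IGF2 was still there on day 16. The low purity wells held 25.2, 21.8, 25.9 and 36.3 TPM on day 6 and 34.1, 36.5 and 34 TPM on day 16. The high purity wells held 3.26, 2.55, 2.69 and 3.88 TPM on day 6 and 2.22, 3.15 and 2.09 TPM on day 16. No high purity well of any day reached the lowest low purity well of days 6 to 16, at 18.5 TPM; their highest was 5.57 TPM on day 13. The means differed 8.81-fold on day 6 (log2 difference -2.76 ± 0.12, limma adjusted p = 7.16e-23), 14.8-fold on day 8, 5.57-fold on day 13 and 14-fold on day 16 (-3.24 ± 0.14, adjusted p = 2.04e-23).

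IGF1, the other ligand, was scarce throughout and rose late in the low purity differentiation. On day 16 the low purity wells had 4.15, 3.63 and 3.52 TPM, and the high purity wells had 0.0703, 0.123 and 0.109 TPM, which rest on 4, 6 and 8 reads. No high purity well of any day exceeded 0.495 TPM. The difference was -1.56 ± 0.16 on day 13 (limma adjusted p = 9.19e-11), when the means stood 17.3-fold apart, and -2.16 ± 0.15 on day 16 (adjusted p = 5.58e-16), when they stood 37.4-fold apart, and both were called. IGF1 entered the fit only through the low purity wells, where it is higher, so these calls are not an independent test of that difference. Within the low purity wells IGF1 rose from day 8 to day 16 by 1.57 ± 0.14 (adjusted p = 2.84e-12). That call is not an independent test of the rise either. Most wells that brought IGF1 into the fit were low purity wells of later days, day 16 included, and no day 8 well reached 1 TPM. At such levels a pseudocount of 1 shrinks differences: on day 6 the means were 0.204 and 1.29 TPM and the log2 difference was -0.84 ± 0.13, while edgeR and DESeq2 on recovered reads gave -2.67 and -2.69 and called it. Those 2 tools also called IGF1 lower in the high purity wells on days 2 and 8, at -1.60 and -1.64 and at -1.16 and -1.14. DESeq2 alone also called it on day 0, at -1.30 against -0.23 by limma, and on day 4, at -1.03 against -0.25.

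IGF1R, the receptor, was present at all times and was not called between the classes on any day. Its TPM ran from 39.0 to 86.5 in the high purity wells and from 36.2 to 77.6 in the low purity wells. The widest gap was on day 8, at 46.8, 49.0 and 39.0 TPM against 73.1, 77.6, 72.0 and 72.4 TPM. These groups did not overlap, as was so for 42.2% of all genes, but the scaled difference of -0.48 ± 0.05 (limma adjusted p = 8.34e-12) was under the size required for a call. In the high purity wells IGF1R was at 67.7 to 86.5 TPM on day 6 and at 39.0 to 49.0 TPM on day 8, a step of -0.51 ± 0.05 with adjusted p = 3.54e-12.

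IGFBP3, which carries most IGF in adult serum and can act without it, had the largest difference of any member on this scale, on day 4. On day 2 it was at 2.57, 2.03, 2.03 and 3.88 TPM in the high purity wells and at 0.622, 1.40, 1.44 and 1.71 TPM in the low purity wells. On day 4 it stood at 31.1, 24.6, 24.7 and 38.4 TPM in the high purity wells and at 712, 638, 582 and 694 TPM in the low purity wells. The lowest low purity well was thus far above the highest high purity well, the means differed 22.1-fold, and the log2 difference was -4.43 ± 0.17 (limma adjusted p = 2.05e-25). The two-sided exact permutation p of the mean TPM was 0.0286, the smallest that 4 against 4 wells can give.

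By day 6 the classes overlapped in IGFBP3. The high purity wells had 1242, 1574, 1329 and 1292 TPM and the low purity wells 1159, 1256, 1251 and 1589 TPM, a difference of 0.04 ± 0.17 (limma adjusted p = 0.91). The rise thus came in different steps. From day 2 to day 4 it was 8.12 ± 0.17 on the log2 scale in the low purity and 2.99 ± 0.17 in the high purity wells, and from day 4 to day 6 it was 0.93 ± 0.17, not called, and 5.40 ± 0.17. Without low purity well 1 of day 6, the low purity step was 1.01 and called. The change from day 0 to day 4 differed between the differentiations by -4.21 ± 0.23 (adjusted p = 8.78e-19).

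After day 6 the courses of IGFBP3 parted again in opposite directions. It fell in the high purity wells from 1074, 685 and 510 TPM on day 8 to 198, 319 and 229 TPM on day 16, a step of -1.35 ± 0.19 (limma adjusted p = 1.21e-07). It rose in the low purity wells from 1244, 1164, 1170 and 1326 TPM to 3326, 2581 and 2607 TPM, a step of 1.43 ± 0.18 (adjusted p = 1.12e-08). The classes differed by -2.07 ± 0.20 on day 13 and by -3.30 ± 0.19 on day 16 (adjusted p = 6.1e-19), where the means stood 11.4-fold apart.

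IGFBP5, a binding protein that attaches to extracellular matrix, changed sides between day 6 and day 13. On day 6 it was higher in the high purity wells, at 350, 463, 471 and 392 TPM against 99.9, 103, 92.7 and 92.1 TPM, a difference of 2.07 ± 0.16 (limma adjusted p = 1.71e-14). On day 8 the classes overlapped, with 212, 129 and 125 TPM against 195, 156, 155 and 188 TPM. On day 16 it was lower in the high purity wells, at 117, 144 and 112 TPM against 845, 529 and 512 TPM, a difference of -2.08 ± 0.19 (adjusted p = 7.27e-13). IGFBP5 had risen between days 0 and 2 in both classes, by 3.70 ± 0.16 in the high purity and by 3.96 ± 0.16 in the low purity wells. At day 0 it was at 2.64 to 4.13 TPM in the high and at 0.903 to 1.41 TPM in the low purity wells, and the log2 difference rounded to 1.00 but lay just under the size for a call. Leaving out high purity well 1, high purity well 3 or low purity well 4 took it to 1.07 and made the call, as did no scaling (1.01), a pseudocount of 0.1 (1.42), edgeR (1.53) and DESeq2 (1.47).

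IGFBP6, which prefers IGF2 over IGF1, had a pulse on day 6 in the high purity differentiation. It went from 11.9, 12.9, 12.3 and 14.8 TPM on day 4 to 161, 111, 156 and 123 TPM on day 6, a rise of 3.21 ± 0.24 (limma adjusted p = 4.97e-15). It fell to 45.9, 57 and 48.0 TPM on day 8 and to 6.04, 10.8 and 9.0 TPM on day 16. In the low purity wells it ran from 2.82 to 25.6 TPM over all days and no step was called. The high purity wells were higher by 2.72 ± 0.24 on day 6 (adjusted p = 1.06e-12) and by 2.20 ± 0.26 on day 8 (adjusted p = 1.96e-09), and the change from day 0 differed on both days, by 2.18 ± 0.34 and 1.66 ± 0.36. On day 13 the difference was 0.85 ± 0.30 and not called, and without high purity well 3 it was 1.27 and called.

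IGFBP7, a related protein that binds IGFs weakly, reached similar levels in both classes by a route that differed. On day 4 it was at 4.27, 3.06, 0.922 and 2.47 TPM in the high purity wells and at 14.9, 11.6, 12.6 and 11.5 TPM in the low purity wells, a difference of -1.94 ± 0.27 (limma adjusted p = 8.72e-08). On day 6 the wells overlapped, between 34.8 and 99.2 TPM in the high and between 50.2 and 87.2 TPM in the low purity wells. On day 8 it was higher in the high purity wells, at 198, 231 and 279 TPM against 117, 131, 142 and 99.8 TPM (1.17 ± 0.29, adjusted p = 0.000911). That call was lost without high purity well 4 (0.96) and with no scaling of libraries (0.94). The wells did not overlap, as for 42.2% of all genes that day. By day 16 the means were 179 and 215 TPM, and the scaled difference was -0.04 ± 0.31.

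IGFBP2, a binding protein known from many embryonic tissues, was the leading binding protein of the undifferentiated cells. On day 0 it was at 242, 260, 263 and 258 TPM in the high purity wells and at 138, 141, 150 and 146 TPM in the low purity wells, a difference of 0.76 ± 0.13 that was under the size for a call. On day 2 the high purity wells had 541, 732, 656 and 520 TPM and the low purity wells 166, 193, 243 and 170 TPM, and the difference of 1.73 ± 0.13 was called (limma adjusted p = 9.02e-15). IGFBP2 then fell from day 2 to day 4 in both, a step of -2.94 ± 0.13 in the high and of -2.55 ± 0.13 in the low purity wells.

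The high purity wells kept more IGFBP2 through day 8, with means of 84.9 against 33.4 TPM on day 4, 102 against 27.5 TPM on day 6 and 118 against 42.7 TPM on day 8, and all 3 differences were called. The gap then closed as IGFBP2 rose in the low purity wells, from 47.0, 46.6, 40.3 and 36.7 TPM on day 8 to 119, 141 and 137 TPM on day 16 (1.84 ± 0.14, limma adjusted p = 1.15e-14). On day 16 the high purity wells, at 79.3, 90.6 and 78.8 TPM, lay under the low purity wells without a call (-0.45 ± 0.15). The change from day 0 to day 16 differed between the differentiations by -1.22 ± 0.20 (adjusted p = 2.2e-06).

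IGFBP4, a binding protein that mainly inhibits IGF action and is the best known substrate of pappalysin-1, peaked on day 2 in both classes. It rose from day 0 to day 2 by 1.37 ± 0.09 in the high and by 1.38 ± 0.09 in the low purity wells, to means of 165 and 136 TPM. It then fell in both classes by day 4, and the next step, to day 6, was -1.19 ± 0.09 and called in the low purity wells and -0.08 ± 0.09 in the high purity wells. On day 6 the wells were at 85.9, 79.7, 74.0 and 81.0 TPM against 27.9, 28.4, 24.9 and 27.5 TPM, a difference of 1.51 ± 0.09 (limma adjusted p = 7.93e-18), and the change from day 0 differed by 1.16 ± 0.13. The day 8 difference of 1.16 ± 0.10 was called, and without scaling it was 0.94 and was not. By day 16 the order had turned, with 33.4, 34.9 and 34.8 TPM against 72.8, 60.0 and 57 TPM, but the scaled difference of -0.64 ± 0.11 was under the size for a call. IGFBP1, best known as the insulin-regulated binding protein of liver and decidua, had at most 9 reads in any multi-omic well, and no fold is given for it.

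**Figure D2:**
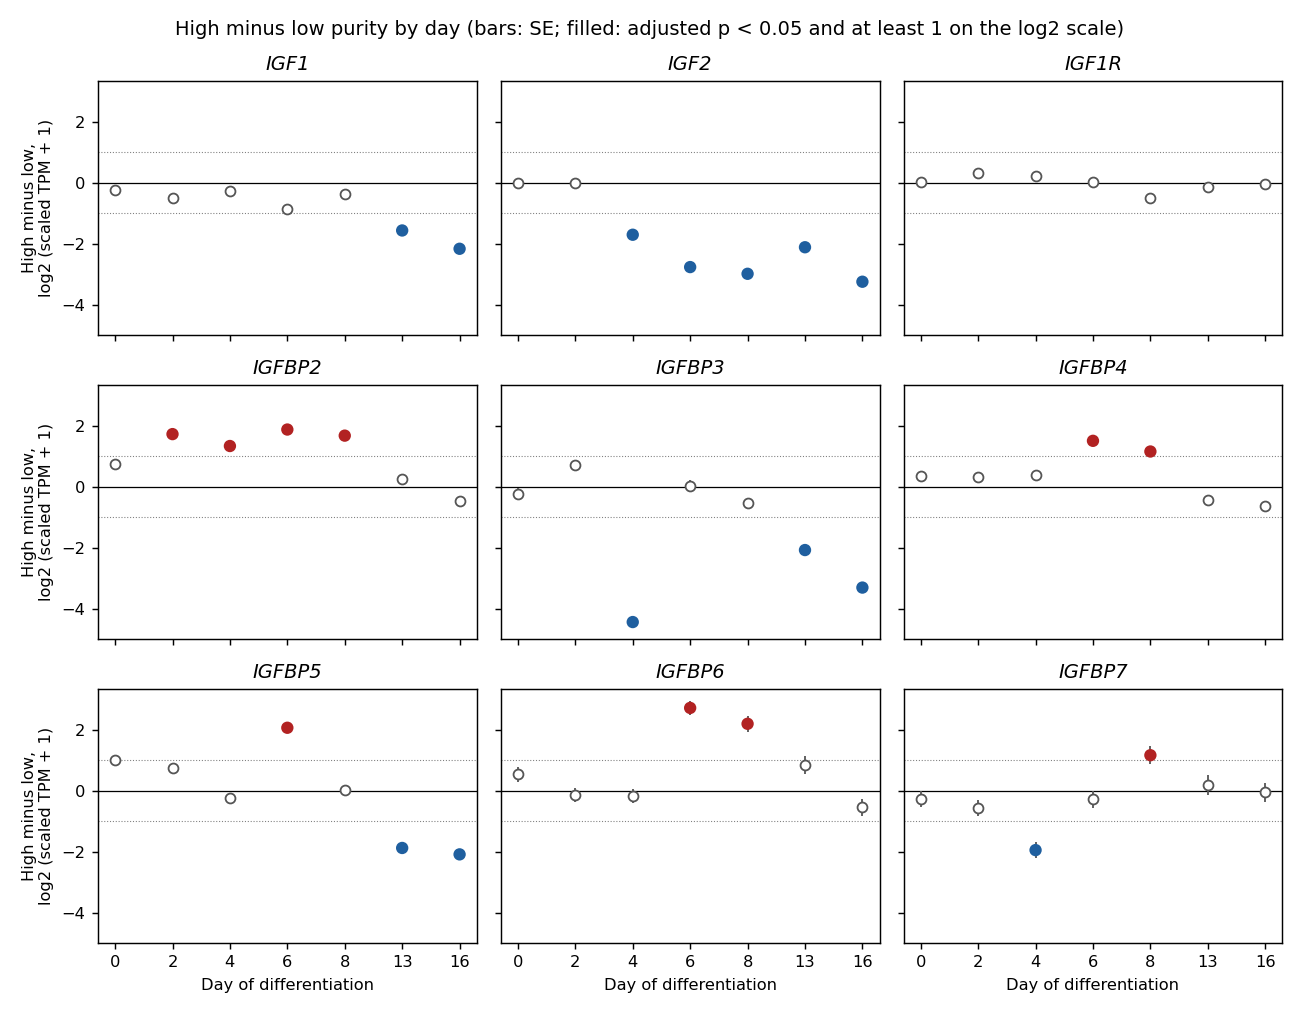
Difference between high and low purity wells on the vertical axis, in log2 units of scaled TPM plus 1, by tested day on the horizontal axis for 9 members, with bars for the standard error and filled points for called differences. IGF2 is below 0 from day 4 on, IGFBP2 is above 0 through day 8, and IGFBP5 is at 2.07 on day 6 and at -2.08 on day 16.

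Summed over the 7 binding proteins, the transcripts were mostly IGFBP2 on days 0 and 2, and the classes then took different courses. The sum was 338 ± 13.4 TPM (SD, n = 4) in the high and 207 ± 6.54 TPM (n = 4) in the low purity wells on day 0, and IGFBP2 made up 75.7% and 69.6% of it. By day 2 the sums were 846 ± 136 and 377 ± 37.2 TPM, with IGFBP2 at 72.4% and 50.9%. On day 4 the order was the reverse, 245 ± 18.1 against 819 ± 52.9 TPM, with IGFBP3 at 12.1% of the high purity and 80.0% of the low purity sum. On day 6 the sums were 2164 ± 153 and 1558 ± 162 TPM. On day 16 the sum was 679 ± 93.4 TPM (n = 3) in the high and 3893 ± 603 TPM (n = 3) in the low purity wells, and no well of either class overlapped the other. The make-up differed too, with IGFBP3 at 36.3% ± 4.0 and 72.9% ± 0.7 and IGFBP7 at 26.7% ± 2.9 and 5.6% ± 0.9 of the sum.

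**Figure D3:**
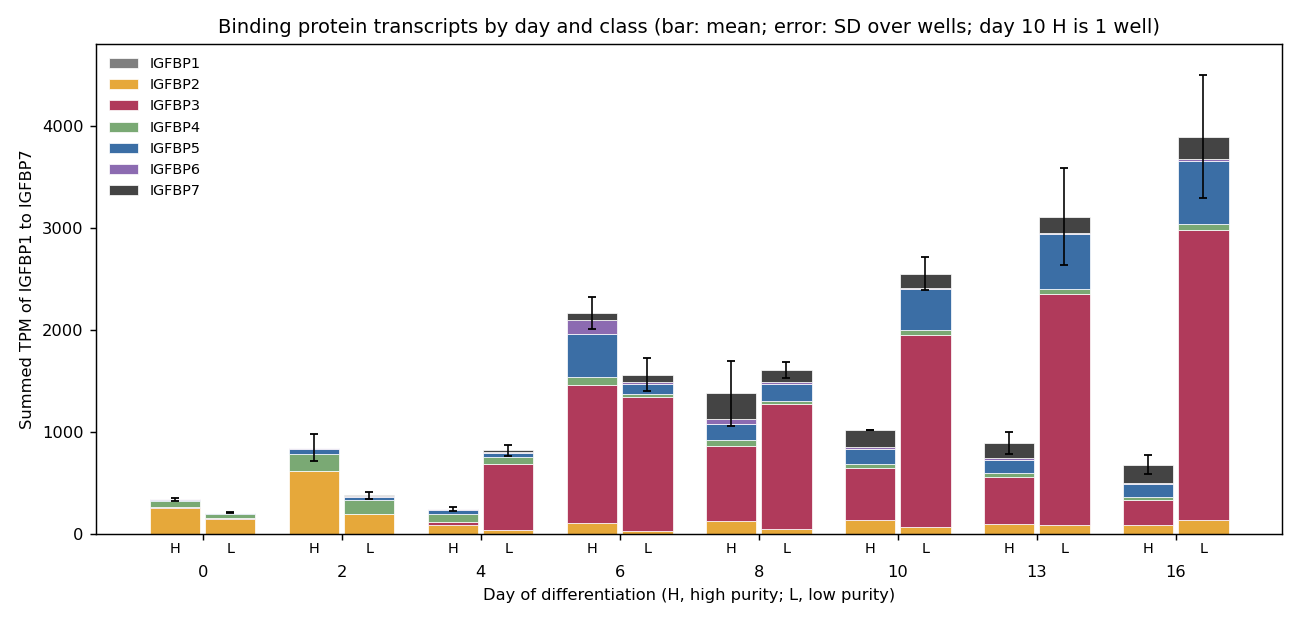
Summed TPM of IGFBP1 to IGFBP7 on the vertical axis for high (H) and low (L) purity wells on each day, with colours for the mean part of each gene and error bars for the SD of the sum over wells. The low purity bars grow from 819 TPM on day 4 to 3893 TPM on day 16, mostly as IGFBP3, while the high purity bars shrink after 2164 TPM on day 6.

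Other genes act on the IGF ligands and their carriers, and of a list of 9 proteases, inhibitors and carriers the counts higher and lower in the high purity wells were 3 and 0 on day 2, 3 and 1 on day 4, 3 and 2 on day 6, 1 and 3 on day 8, 1 and 2 on day 13, and 0 and 3 on day 16. Of all genes 5.33%, 7.84%, 8.8%, 12.2%, 10.8% and 13.4% were called on those days, and no list member was called on day 0. PAPPA, which encodes pappalysin-1, was higher in the high purity wells on day 4, at 22.0 ± 2.28 against 4.78 ± 0.524 TPM (SD, n = 4 each). It was then lower on every later tested day, and on day 16 it was at 4.07 ± 0.349 against 119 ± 5.45 TPM (n = 3 each; -4.40, limma adjusted p = 4.72e-29). STC1, which encodes stanniocalcin-1, an inhibitor of pappalysin-1, was higher in the high purity wells on days 2, 4, 6 and 8, most on day 2, at 148 ± 26.2 against 14.7 ± 9.05 TPM. The metalloproteases ADAM12, which can cleave IGFBP3 and IGFBP5, and ADAM9 were lower in the high purity wells, ADAM12 from day 6 on and ADAM9 on days 4, 8 and 16. ADAM12 stood at 1.01 ± 0.0213 against 26.7 ± 5.12 TPM on day 16.

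Of 9 other receptors and adaptors of the pathway, at most 2 were called on any day, 1 in each direction on day 16 (13.4% of all genes), and the list's median difference there was 0.08 beside 0.00 for all genes. GRB14, an adaptor that inhibits insulin receptor signalling, was higher in the high purity wells on days 6, 8 and 16, at 36.4 ± 7.69 against 8.06 ± 1.81 TPM on day 8. Of 7 genes of the IGF2 locus and IGF2 mRNA binding proteins, 5 were in the fit, and IGF2-AS, the antisense neighbour of IGF2, was lower in the high purity wells on days 6, 8 and 16. Of 10 insulin and FOXO responsive genes, 4 were called on day 16, 2 in each direction. TXNIP, a glucose-responsive inhibitor of thioredoxin, was higher in the high purity wells on day 6, at 269 ± 28.3 against 99.3 ± 6.02 TPM, and lower on days 2, 13 and 16, on the last at 32.2 ± 2.24 against 187 ± 10.4 TPM. KLF15 and FBXO32, both known in heart muscle, were higher on days 13 and 16 (KLF15 also on day 2, while FBXO32 was lower on day 4), FBXO32 at 47.1 ± 4.18 against 19.1 ± 2.97 TPM on day 16.

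The gene whose pattern over the 16 class and day means was most like that of IGF2, among 16958 genes, was LUM, a fibroblast matrix gene, with a Pearson r of 0.9925. The next was IGF2-AS at 0.9876. For IGFBP3 they were ITGAV (0.9811), an integrin subunit, and FAM84B (0.9728). CMYA5, a muscle gene, was at 0.9901 with IGFBP7, second to the uncharacterised LOC100506114 at 0.9905. For IGFBP6 the gene most alike was TAL1 (0.9510), a factor of blood and endothelial precursors, then LOC107987101 (0.9279). For IGFBP5 they were CAMK2D (0.9640), a calcium-dependent kinase of heart muscle, and TUSC3 (0.9615). IGFBP2 was nearest to GRAMD1A (0.9308) and NOA1 (0.9211), IGFBP4 to FAM174B (0.9349) and LIN7A (0.9217), and IGF1R to ZSCAN16 (0.9235) and PLPP3 (0.9204). These means share libraries and days, and the values describe likeness only.

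Markers of other cell types and of undifferentiated cells also differed between the classes, in part on other days than the members. Of 6 pluripotency markers in the fit, 3 were higher in the high purity wells and 0 were lower on each of days 2, 4 and 6, on which IGFBP2 was called higher there, against 2.24%, 3.62% and 3.61% of all genes. SOX2 was among them on all of these days, with NANOG and DPPA4 on day 2, NANOG and TDGF1 on day 4, and LIN28A and TDGF1 on day 6. On day 8, when IGFBP2 was also called higher, SOX2 was the only 1 called (4.66% of all genes higher). On days 13 and 16, when IGFBP2 was not called, 2 and 1 were higher (4.55% and 5.76% of all genes). The 7 on the list summed to 2054.8 to 2329.9 TPM in the high and 1208.8 to 1260.0 TPM in the low purity wells on day 2, to 1851.9 to 2450.5 against 969.5 to 1094.1 TPM on day 4, and to 1071.1 to 1262.0 against 412.99 to 574.35 TPM on day 6. A list of 8 fibroblast and stromal markers summed to between 1534.3 and 1593.6 TPM in the low purity wells on day 4, against 423.0 to 615.49 TPM in the high purity wells, on the day IGF2, IGFBP3 and IGFBP7 were called lower in the latter. At day 16 they were 9737.6 to 13226 TPM against 585.58 to 707.8 TPM, with 7 of the 8 genes called lower in the high purity wells (7.65% of all genes) and DCN below 1 TPM there. On days 6 and 8, 5 and 6 of the 8 were called lower (5.19% and 7.5% of all genes). IGF2 was called lower on both of those days and IGFBP3 on neither (0.04 and -0.53). IGFBP7 was not called on day 6 (-0.28) and was called higher on day 8 (1.17). For 7 epicardial markers the day 16 sums were 417.64 to 569.58 TPM against 20.902 to 30.371 TPM, 6 of the 7 were called lower, and TCF21, ALDH1A2 and UPK3B were below 1 TPM in the high purity wells. The 11 cardiomyocyte markers summed to 2640.8 to 3330.4 TPM in the low purity wells on day 4 against 169.43 to 210.56 TPM, and on day 16 to 5178.9 to 7541.8 TPM against 12895 to 14977 TPM. On days 6 and 8, IGFBP6 and IGFBP4 were higher in the high purity wells. Of 8 endothelial markers, 6 were higher there on both days (3.61% and 4.66% of all genes) and 1 was lower (5.19% and 7.5%). PECAM1, CD34 and VWF were below 1 TPM in the low purity wells on those days. The sums of the 8 overlapped, at 284.75 to 348.96 against 263.9 to 340.95 TPM on day 6 and at 185.02 to 244.78 against 191.3 to 218.68 TPM on day 8. On each of days 13 and 16, 5 endothelial markers were higher (4.55% and 5.76% of all genes) and 2 were lower (6.23% and 7.65%). IGFBP4 (-0.42 and -0.64) and IGFBP6 (0.85 and -0.54) were not called on those 2 days. Of 7 endoderm markers in the fit, 6 were higher and 1 was lower on each of days 6 and 8. The endoderm counts were 5 and 0 on day 13 and 3 and 2 on day 16. The 8 on the list summed to 1588.9 to 2044.9 TPM in the high and 424.31 to 849.54 TPM in the low purity wells on day 6. Of 5 smooth muscle markers in the fit, 4 were lower in the high purity wells on day 16. The part of these cells in the IGF results was not tested.

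**Figure D4:**
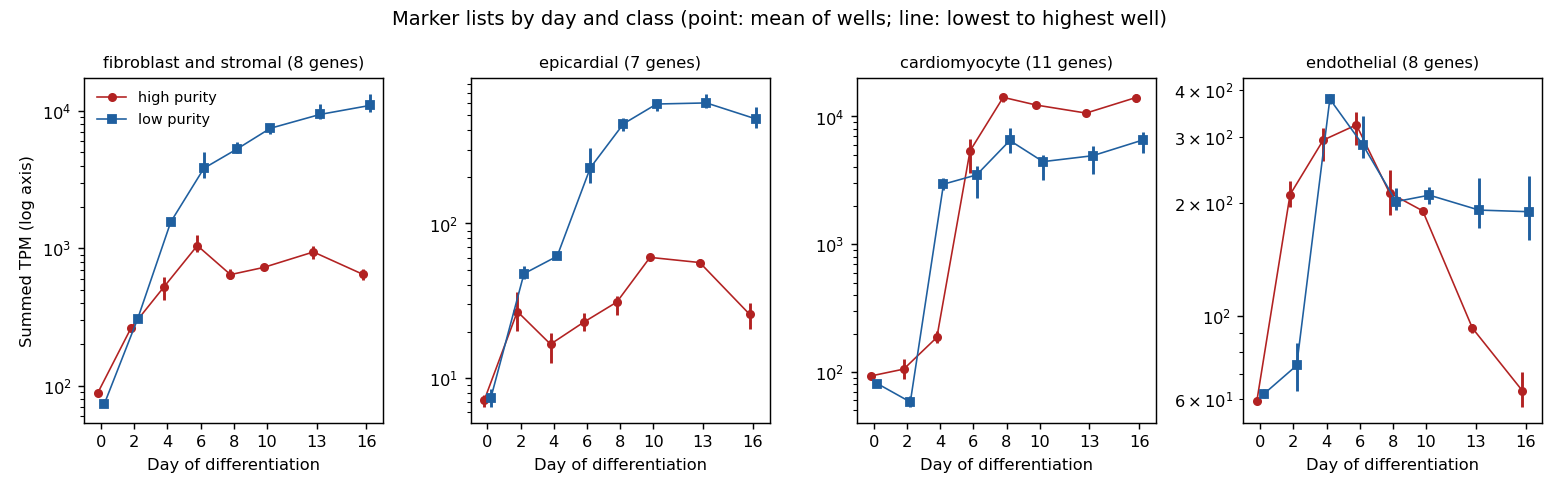
Summed TPM of 4 marker lists on log vertical axes by day of differentiation, with points for the mean of the wells, vertical lines from the lowest to the highest well, red for high and blue for low purity. On day 16 the fibroblast and stromal sum of the low purity wells is at 9737.6 TPM or more and that of the high purity wells at 707.8 TPM or less.

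In the RNA-only experiment, with 3 lines, no member was called between the classes at any of the 4 stages. With edgeR's quasi-likelihood test 0 of 24810 genes were called (0.0% at each stage), and 362, 1921, 1828 and 2916 genes had an unadjusted p below 0.05. DESeq2 called 0, 77, 56 and 202 genes, and limma on TPM called 0, 2, 0 and 21, and neither called a member. The fit held 9 members and left out IGFBP1, with at most 4 reads in a library. At an unadjusted p below 0.05, IGF1 on day 6 or 7 was the only one of them (-3.15 ± 1.28 on the log2 scale, edgeR adjusted p = 0.381). Its reads in the high and low purity libraries were 2 and 239 in H9, 0 and 2 in IMR90-4, and 12 and 11 in WTC11. The value thus rests mainly on H9. For IGFBP3 the difference was -0.92 ± 1.34 on day 4 or 5 and -1.31 ± 1.03 on day 6 or 7, and for IGF2 it was 0.30 ± 1.18 and -0.61 ± 1.03.

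Along the protocol, IGF2, IGFBP3 and IGFBP7 rose over the 6 RNA-only differentiations. IGF2 had 0 to 3 reads in each library on day 0 and 1 to 579 reads at the second stage (edgeR adjusted p = 6.29e-05). WTC11 had only 1 and 2 reads at the second stage, and then 146 reads in the high and 45 reads in the low purity library on day 4. IGFBP3 rose by 3.15 ± 0.66 from the second to the third stage (adjusted p = 0.00503) and by 3.31 ± 0.65 from the third to the fourth (adjusted p = 0.00509), and IGFBP7 rose by 3.39 ± 0.40 at the last step (adjusted p = 0.000151). At these 3 steps 25.6%, 6.86% and 3.72% of 23848 genes were called. The IGFBP3 calls were lost without IMR90-4 (2.73 and 3.31) and without WTC11 (3.09 and 2.62), with fewer differentiations tested. IGF2 also rose from the second to the third stage, by 2.37 ± 0.53 (adjusted p = 0.00745), a call lost without IMR90-4 (2.33). With limma on TPM plus 1 the IGF2 steps were 0.58 and 0.79 on the log2 scale, and neither was called. IGFBP2 fell by 1.43 from day 0 to the second stage (adjusted p = 0.039), but without H9 the step was -0.10 and not called, and without IMR90-4 it was -1.46 and not called.

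H9 stood apart from the other lines in its low purity differentiation. IGFBP3 was at 13.8 TPM on day 3, 70.3 TPM on day 5 and 110 TPM on day 7 in that differentiation, and at 0.278, 2.22 and 24.3 TPM in high purity H9. IGF2 was at 4.70, 11 and 13.9 TPM against 0.392, 0.987 and 2.22 TPM on the same days. IGFBP5 reached 10.4 TPM on day 5 and 113 TPM on day 7, against 0.453 and 1.16 TPM. IGF1 was at 1.15 TPM on day 7, from 239 reads, against 0.00959 TPM from 2 reads. All 4 genes were thus higher in the low purity H9 library of day 7. The fibroblast and stromal markers summed to 407.62, 915.08 and 1720.1 TPM in low purity H9 on days 3, 5 and 7, against 296.88, 294.04 and 476.58 TPM in high purity H9, and the epicardial markers to 51.62, 68.073 and 161.94 TPM against 3.7724, 36.376 and 27.403 TPM. In the other lines the order at the last stage was the opposite. Stromal sums in the high and low purity libraries were 341.6 and 261.92 TPM in IMR90-4 and 318.63 and 222.32 TPM in WTC11. Epicardial sums were 7.3597 and 4.9567 TPM in IMR90-4 and 11.308 and 9.3666 TPM in WTC11. The part of those cells was not tested, and each value is 1 library.

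At the last stage IGFBP3 and IGFBP5 were lower in the high purity library in all 3 lines, as was IGFBP1 at a few reads, and 31.2% of all genes kept 1 direction over the lines there. The difference in IGFBP3 was -2.14 in H9, -1.14 in IMR90-4 and -0.58 in WTC11 on the log2(TPM + 1) scale, and that in IGFBP5 was -5.72, -0.11 and -0.92. At earlier stages the order of the classes in IGFBP3 differed between lines. IGFBP5 on day 0 was higher in the high purity library of all 3 lines, at 3.09 against 1.49 TPM in H9, 0.588 against 0.258 TPM in IMR90-4 and 0.580 against 0.560 TPM in WTC11. Its order differed between lines on day 2 or 3 and on day 4 or 5. In IMR90-4 IGFBP3 was at 0.187, 5.23 and 36.6 TPM in the high and at 0.389, 7.20 and 81.6 TPM in the low purity libraries of days 3, 5 and 7. In WTC11 it was at 0.578, 8.48 and 82.7 TPM in the high and at 0.510, 1.80 and 124 TPM in the low purity libraries of days 2, 4 and 6. The order on day 4 was thus the reverse of that in H9. IGF2 on day 4 or 5 was higher in the high purity library in IMR90-4, at 1.68 against 0.621 TPM, and in WTC11, at 0.999 against 0.195 TPM.

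IGFBP2 was abundant in all lines before differentiation. On day 0 it was at 1546 and 723 TPM in high and low purity H9, at 498 and 261 TPM in IMR90-4 and at 256 and 316 TPM in WTC11. On day 2 or 3 it stood at 103 and 47.6 TPM in H9, at 149 and 133 TPM in IMR90-4 and at 523 and 540 TPM in WTC11. H9 was thus the highest of the lines on day 0 and the lowest at the next stage, which WTC11 reached on day 2 and the others on day 3. IGFBP6 was at 56.8 and 64.2 TPM in high and low purity IMR90-4 on day 7, at 35.8 and 56.2 TPM in WTC11 on day 6, and at 24.7 and 4.34 TPM in H9 on day 7. At the stage before it was at 39.2 and 35.3 TPM in IMR90-4, 10.2 and 6.32 TPM in WTC11, and 30.4 and 10.3 TPM in H9. The rise to the last stage was thus in both classes of IMR90-4 and WTC11, and H9 had a fall in both. IGF1R ran from 4.39 to 10.5 TPM over all 24 libraries and IGFBP4 from 18.0 to 66.5 TPM.

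**Figure D5:**
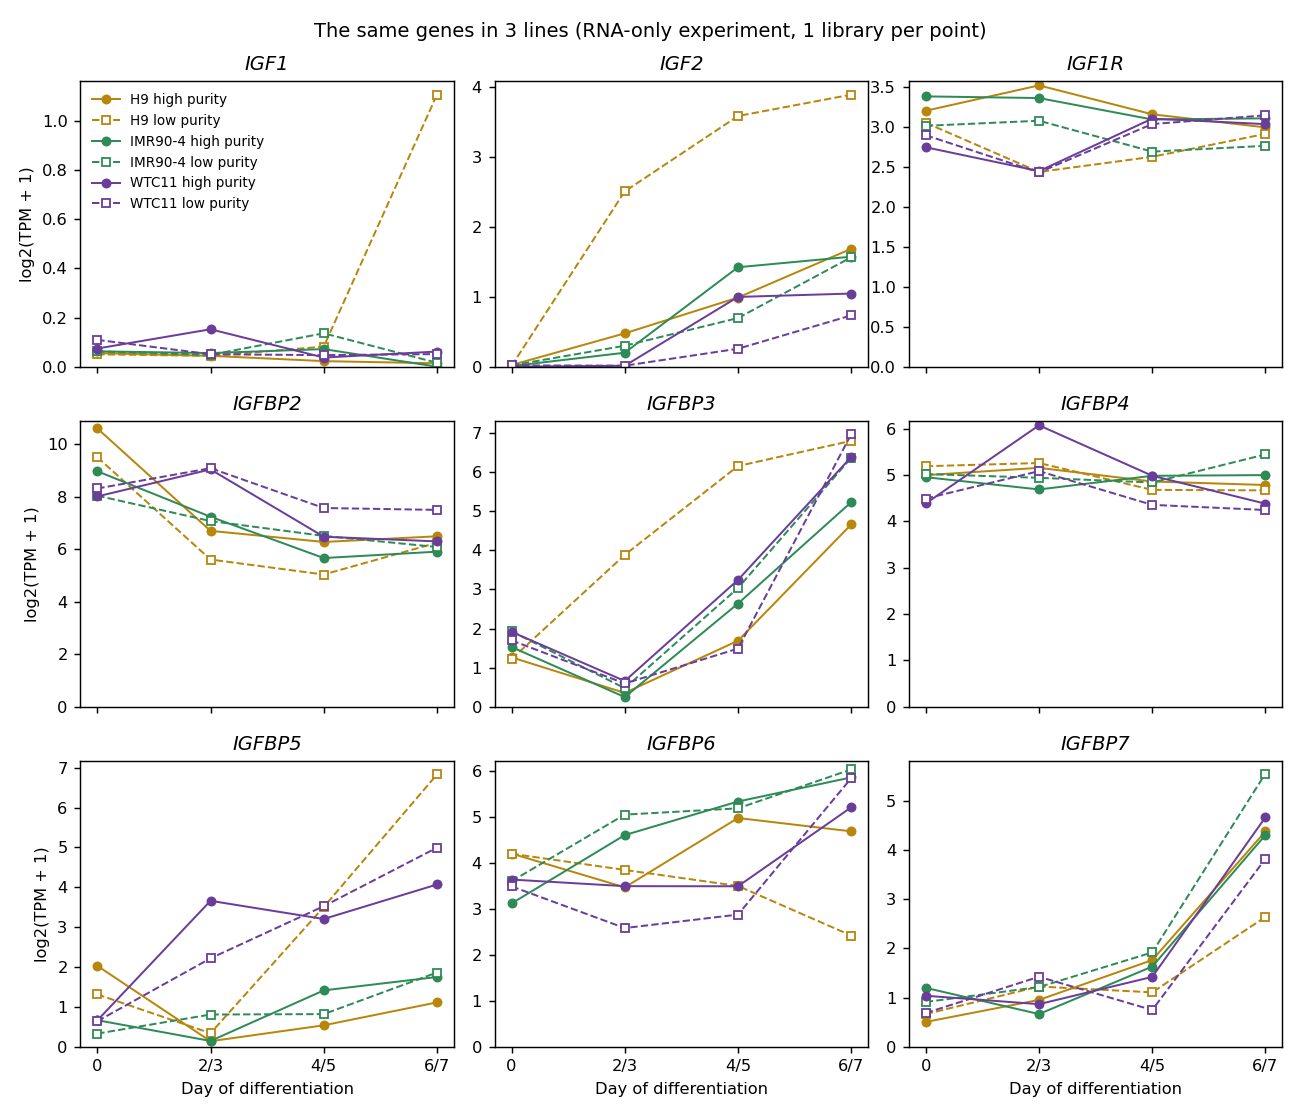
Expression of 9 members as log2(TPM + 1) on the vertical axis in the RNA-only experiment by day on the horizontal axis, with 1 library per point, a colour for each line, filled circles and solid lines for high and open squares and dashed lines for low purity. The low purity H9 libraries lie above all others in IGF2 after day 0, and in IGFBP5 and IGF1 on day 7.

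Both experiments had a low purity differentiation of WTC11 at passage 69, and whether it is the same differentiation is not given in the sources used here. The 2 tables come from different library kits (total and poly(A) RNA) and were normalised separately, so their levels are set side by side and not compared. On day 4 IGFBP3 was at 1.80 TPM in the RNA-only library and at 582 to 712 TPM in the 4 multi-omic wells, and IGF2 was at 0.195 TPM and at 4.65 to 5.68 TPM. On day 6 IGFBP3 was at 124 TPM in the RNA-only library and at 1159 to 1589 TPM in the multi-omic wells. IGFBP6 that day was at 56.2 TPM in the RNA-only library and at 14.7 to 25.6 TPM in the multi-omic wells. IGF1R was at 7.20 TPM in the RNA-only library and at 51.6 to 57.9 TPM in the multi-omic wells on day 4. The fibroblast and stromal sum was 96.177 TPM in the former and 1534.3 to 1593.6 TPM in the latter.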

How the data were processed

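The 10 genes and all gene lists were chosen with earlier results of these data known. Per the submitters' processing notes, reads were aligned with STAR 2.5.3a to hg38 and counted with featureCounts 2.0.3; how the authors computed TPM is not given in the sources used here. The deposited TPM values and the deposited counts of 43388 genes are the authors' own.

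None of the 56 multi-omic TPM columns matched the count column of its own name: 50 matched a column of another name and 6 matched none. By their TPM, 52 of 55 wells lay nearest a well of their own group, against 27 of 55 by counts, so the TPM column names were used. All 24 columns of the RNA-only experiment matched, and 36 broken lines of its counts were left out. Reads were recovered from the multi-omic TPM by solving gene lengths. Before any gene was dropped for this, 100.0% of the values above 0 in each library came out whole within 0.05 reads. The 37194 genes whole in every library were kept.

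Multi-omic TPM was scaled by TMM, genes were kept if 3 or more libraries reached 1 TPM, and log2(TPM + 1) was fitted over 16 groups with limma 3.58.1 (trend). RNA-only counts were tested with edgeR 4.0.16 (filterByExpr, TMM, quasi-likelihood), with line and stage means for class and differentiation as a block for stage. Calls needed a Benjamini-Hochberg adjusted p below 0.05 over all genes and an absolute log2 difference of 1 or more. Scripts were tested on simulated data. Day 10 has 1 high purity well and was not tested. Folds are of mean TPM, while log2 differences are of scaled values. Named pathway genes are those called on at least 3 tested days; the most similar genes are the 2 with the highest r among genes with a mean of at least 5 TPM in a group, for members reaching a mean of 10 TPM. Two-sided exact permutation tests of mean TPM cannot go below 0.0286 with 4 against 4, 0.0571 with 3 against 4, 0.133 with 2 against 4 and 0.1 with 3 against 3 wells. Alternatives were another pseudocount, scaling and filter, no size threshold, edgeR and DESeq2 1.42.0 on reads, a replicate block, and leaving out each well or line.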

Additional observations from a re-analysis of the deposited data

Results flagged for a closer look

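A well lay far from the others of its group in 7 of the 103 group and gene sets examined, about as often as chance gives (1 in 20). IGF1 was at 0.128 TPM in high purity well 2 of day 2, below its group, and at 2.39 TPM in low purity well 4 of day 6, above it. That second well also had the lowest IGFBP2 of its group, at 17.3 TPM. IGFBP2 was highest in high purity well 3 of day 4, at 98.2 TPM, and IGFBP5 was highest in low purity well 3 of day 2, at 45.5 TPM. The values of IGFBP1, 0.256 TPM in high purity well 4 of day 0 and 0.209 TPM in low purity well 1 of day 4, rest on 2 reads and 1 read.

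The change from day 0 differed between the 2 differentiations in 22 called tests of that difference (limma, log2 scale, high minus low). On day 4 it was -1.70 for IGF2, -4.21 for IGFBP3, -1.24 for IGFBP5 and -1.68 for IGFBP7. On day 6 it was -2.76 for IGF2, 1.11 for IGFBP2, 1.16 for IGFBP4, 1.08 for IGFBP5 and 2.18 for IGFBP6. Without low purity well 4 of day 6 the IGFBP2 value was 0.92 and not called, and the IGFBP5 value was 0.66 with a pseudocount of 0.1, 0.57 by edgeR and 0.62 by DESeq2 and not called in any of them. On day 8 it was -2.98 for IGF2, 1.66 for IGFBP6 and 1.43 for IGFBP7. By edgeR the IGFBP7 values were -1.59 on day 4 and 1.79 on day 8, and neither was called. On day 13 it was -1.33 for IGF1, -2.11 for IGF2, -1.86 for IGFBP3 and -2.87 for IGFBP5. On day 16 it was -1.93 for IGF1, -3.24 for IGF2, -1.22 for IGFBP2, -3.09 for IGFBP3, -3.07 for IGFBP5 and -1.08 for IGFBP6. The IGFBP6 value on day 16 was -0.95 without high purity well 1 of day 0, -0.90 without high purity well 1 of day 16 and -0.83 without low purity well 3 of day 0, and not called in any of the 3. As IGF2 had 0 reads on day 0, its values repeat the difference between the classes on the later day. IGF1 entered the fit only through the low purity wells.

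In the RNA-only experiment IGFBP2 was higher in the high purity library at all 4 stages in H9, by 0.92 on average on the log2 scale, and lower at all 4 in WTC11. That difference between lines was not tested.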

How the results depend on the processing

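No result of the 10 genes reversed under any alternative. In this paragraph a count of called members is listed only where it moved from 0 or by more than 1.5-fold. Smaller moves are left out, such as members added between the classes on days 4, 6, 13 and 16 without the size threshold. Dropping the size threshold raised the members called between classes on days 0, 2 and 8 to 3, 6 and 8 (14.6%, 37.4% and 44.1% of all genes), those called in the high purity steps ending on days 4, 8 and 16 to 7, 7 and 5 (46.3%, 30.0% and 41.1%), those in the low purity steps ending on days 2, 6 and 8 to 6, 8 and 5 (53.4%, 35.3% and 25.7%), and those with different changes from day 0 on days 2 and 8 to 3 and 7 (18.6% and 30.0%). With a pseudocount of 0.1 the counts between classes were 1 on day 0 and 4 on day 2, the high purity step to day 4 had 5, and the change from day 0 to day 2 differed for 1. On recovered reads edgeR and DESeq2 called 1 and 2 members on day 0 and 3 each on day 2, DESeq2 called 5 in the high purity step to day 4 and 1 for the change to day 2, edgeR called 2 for the change to day 4, and both called 3 for that to day 6. IGF2, at 0 reads on day 0, lost the calls on its change from day 0 with both tools on each of the 5 days. Without scaling, 1 member was called on day 0 and 3 on day 8. That setting moved the median of all genes to -0.179 on day 8, from -0.03, and to -0.133 and -0.118 on days 13 and 16. The share of calls that were higher moved from 38.3%, 42.2% and 43.0% to 25.3%, 30.6% and 28.1% on these 3 days.

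Leaving out 1 well gave 0 to 1 members between classes on day 0, 4 to 5 on days 8 and 13, 4 to 5 in the high purity step to day 6 and the low purity step to day 6, 5 to 6 in the low purity step to day 16, and 0 to 1, 4 to 5, 3 to 4 and 6 to 7 for the changes to days 2, 6, 8 and 16. In the RNA-only stages, leaving out 1 line gave 1 to 2, 0 to 3 and 1 to 2, no filter gave 1 at the first step, and limma on TPM gave 0 and 1 at the first 2 steps. Wells of the same number did not deviate together (every correlation at or below 0.032), and a replicate block changed 0 of 230 calls, with counts between classes of 0, 1, 4, 5, 5, 4 and 4. Each class is 1 differentiation, and for IGFBP1, with at most 9 reads in a well, a difference was not detectable at this depth.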

Other observations

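On day 10, which has 1 high purity well and no test, IGF2 was at 2.84 TPM in that well and at 19.4 to 29.3 TPM in the 4 low purity wells. IGF1 was at 0.259 TPM against 1.31 to 2.21 TPM, IGFBP3 at 511 TPM against 1763 to 2022 TPM, and IGFBP5 at 144 TPM against 363 to 454 TPM. IGFBP2 was at 131 TPM in the high purity well, above the 61.3 to 71.4 TPM of the low purity wells, and IGFBP6 at 22.9 TPM against 4.34 to 14.9 TPM. IGFBP7 was at 170 TPM against 127 to 156 TPM, IGFBP4 at 39.7 TPM against 42.8 to 53.7 TPM, and IGF1R at 48.2 TPM against 71.5 to 75.2 TPM.

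Within the RNA-only experiment the make-up of the binding protein transcripts differed between lines at the last stage. IGFBP6 made up 27.8% and 21.1% of the sum in high and low purity IMR90-4, 14% and 13.3% in WTC11, and 13.3% and 1.3% in H9. IGFBP5 made up 34% in low purity H9 and 0.6% in high purity H9, and 6.2% and 7.3% in high and low purity WTC11. Each share is from 1 library.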
